A study of Mus musculus with 3 samples.

Results

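The keratin genes and the keratin-associated protein genes of the mouse are described here by the nucleosomes listed over them in erythroblasts, the cells that mature into red cells. The members are the protein-coding genes of chromosomes 1 to 19 whose symbol is Krt or Krtap followed by a number in RefSeq's genes of GRCm38.p6, an assembly with mm10 coordinates. They are 109 of 20556 such genes, 53 keratins and 56 keratin-associated proteins. The rule uses symbols and no measured value, although it was chosen with earlier results of these data known. Gaps of at most 500 kb between members gave 6 clusters. The chromosome 15 cluster holds 26 genes (the type II keratins and the type I keratin Krt18), the chromosome 11 cluster 50 (the other type I keratins and 23 Krtap genes) and the chromosome 16 cluster 24 Krtap genes. A further 5 Krtap genes lie on chromosome 7, 3 on chromosome 10 and 1 on chromosome 1.

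The erythroblasts came from the livers of 6 mouse fetuses, were negative for Ter119, a surface protein of later red cell stages, and were grown in IMDM with insulin, erythropoietin at 2 U/ml, BSA at 1% and fetal bovine serum at 10%. Chromatin was taken on days 0, 1 and 2 of culture and cut with micrococcal nuclease, which digests the DNA between nucleosomes, and the fragments of single nucleosomes were sequenced. The study followed how nucleosomes change as red cells mature. There was 1 library a day, so every difference between days is one between libraries, with no replicate check and no test. The sources used here give no strain, genotype or fetal age, and do not say whether the 3 days share a culture. RNA was not measured, so neither the labelled cell type nor the silence of the keratin genes could be checked against transcript levels.

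The authors called nucleosome positions in each library and gave each position, 140 bp wide, a summit value, a coverage signal at its centre. The autosomes had 1.54, 1.23 and 1.82 listed positions per kb on days 0, 1 and 2 (3689577, 2967550 and 4382151 in number). Read totals were not given, so sequencing depth, the listing threshold and the day cannot be told apart. Relative occupancy below is the summed summit value per bp over the gene span with 5 kb on each side, divided by the same quantity over the autosomes of that library. Relative position density counts each position once. A value of 1 is the autosome mean on either scale, and intervals cover counting error only.

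Keratins are the intermediate filament proteins of epithelia, and each filament is built from pairs of 1 type I and 1 type II chain. Simple epithelia use Krt8 with Krt18, the basal layer of the epidermis uses Krt5 with Krt14, its upper layers use Krt1 with Krt10, and the hair shaft and its inner root sheath have keratins of their own. Keratin-associated proteins fill the space between the filaments of hair and are grouped by composition into high-sulfur, ultrahigh-sulfur and high glycine-tyrosine families. Blood cells are not known for making these proteins, and the clusters are textbook examples of tissue-restricted gene families that lie among many other genes.

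The keratin neighbourhoods carried fewer listed nucleosomes, relative to the autosomes, on days 1 and 2 than on day 0. The 109 members had median relative occupancies of 1.35, 0.492 and 0.678 on days 0, 1 and 2, against 1.87, 1.97 and 1.69 over the other 20447 genes. The 53 keratins had medians of 1.96, 0.875 and 0.989, and the 56 Krtap genes 0.582, 0.267 and 0.513. Members above the autosome mean numbered 71 on day 0, 25 on day 1 and 29 on day 2. On day 1, 93 of the 109 lay below their own day 0 level, and on day 2 all 53 keratins did. Of the 20206 genes with at least 10 positions over the 3 days, 7733 lay below day 0 on day 1 and 12169 on day 2. With that minimum, 92 of 105 members lay below day 0 on day 1 and 82 on day 2. The order day 0, then day 2, then day 1, from high to low, held for 53 members, of which 33 are on chromosome 11 and 14 on chromosome 15. This order was not counted over all genes.

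Taken over the union of the member windows, 1400.5 kb of DNA, there were 3335, 1668 and 2526 positions on days 0, 1 and 2. Divided by the autosome density, these are 1.55, 0.965 and 0.989. The scaled ratio of day 1 to day 0 was 0.622 (exact 95% interval 0.586 to 0.66), and that of day 2 to day 0 was 0.638 (0.605 to 0.672). Day 2 stood at 1.03 times day 1 (0.964 to 1.09), a ratio that fell on the other side of 1 without the members of chromosome 11 or of chromosome 16, or with narrower windows. Where positions with summits under 10 were left out, the ratio of day 1 to day 0 was 0.363.

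Genes were also counted by size, as past a fold of 2 in relative occupancy after 0.1 was added, among the 20206 genes with at least 10 positions over the 3 days. The 105 members that passed this minimum exclude Krtap19-3, Krtap6-1, Krtap6-5 and Krtap21-1. On day 1, 52 members (49.5%) were lower than on day 0 by this rule and 3 were higher, while 5.37% of all tested genes were lower and 1.7% higher. From day 1 to day 2 the counts were 22 members higher, against a background of 9.76%, and 1 lower, against 0.371%. On day 2, 22 members were lower than on day 0 (background 1.28%) and 10 were higher (background 6.96%). The median log2 difference over members was -0.98 for day 1 against day 0, where it was 0.14 over all tested genes, and -0.64 for day 2 against day 0, where it was -0.12. Setting members with no position on a day to a floor of 3 positions left the medians at the same values to 2 decimals. With the gene span alone, 21 of 67 measured members were lower on day 1 (background 4.68%), and with summit values of 10 or more, 14 of 21 (background 15.4%). Neighbouring windows overlap for 45 members, so these counts are not counts of separate places.

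**Figure D1:**
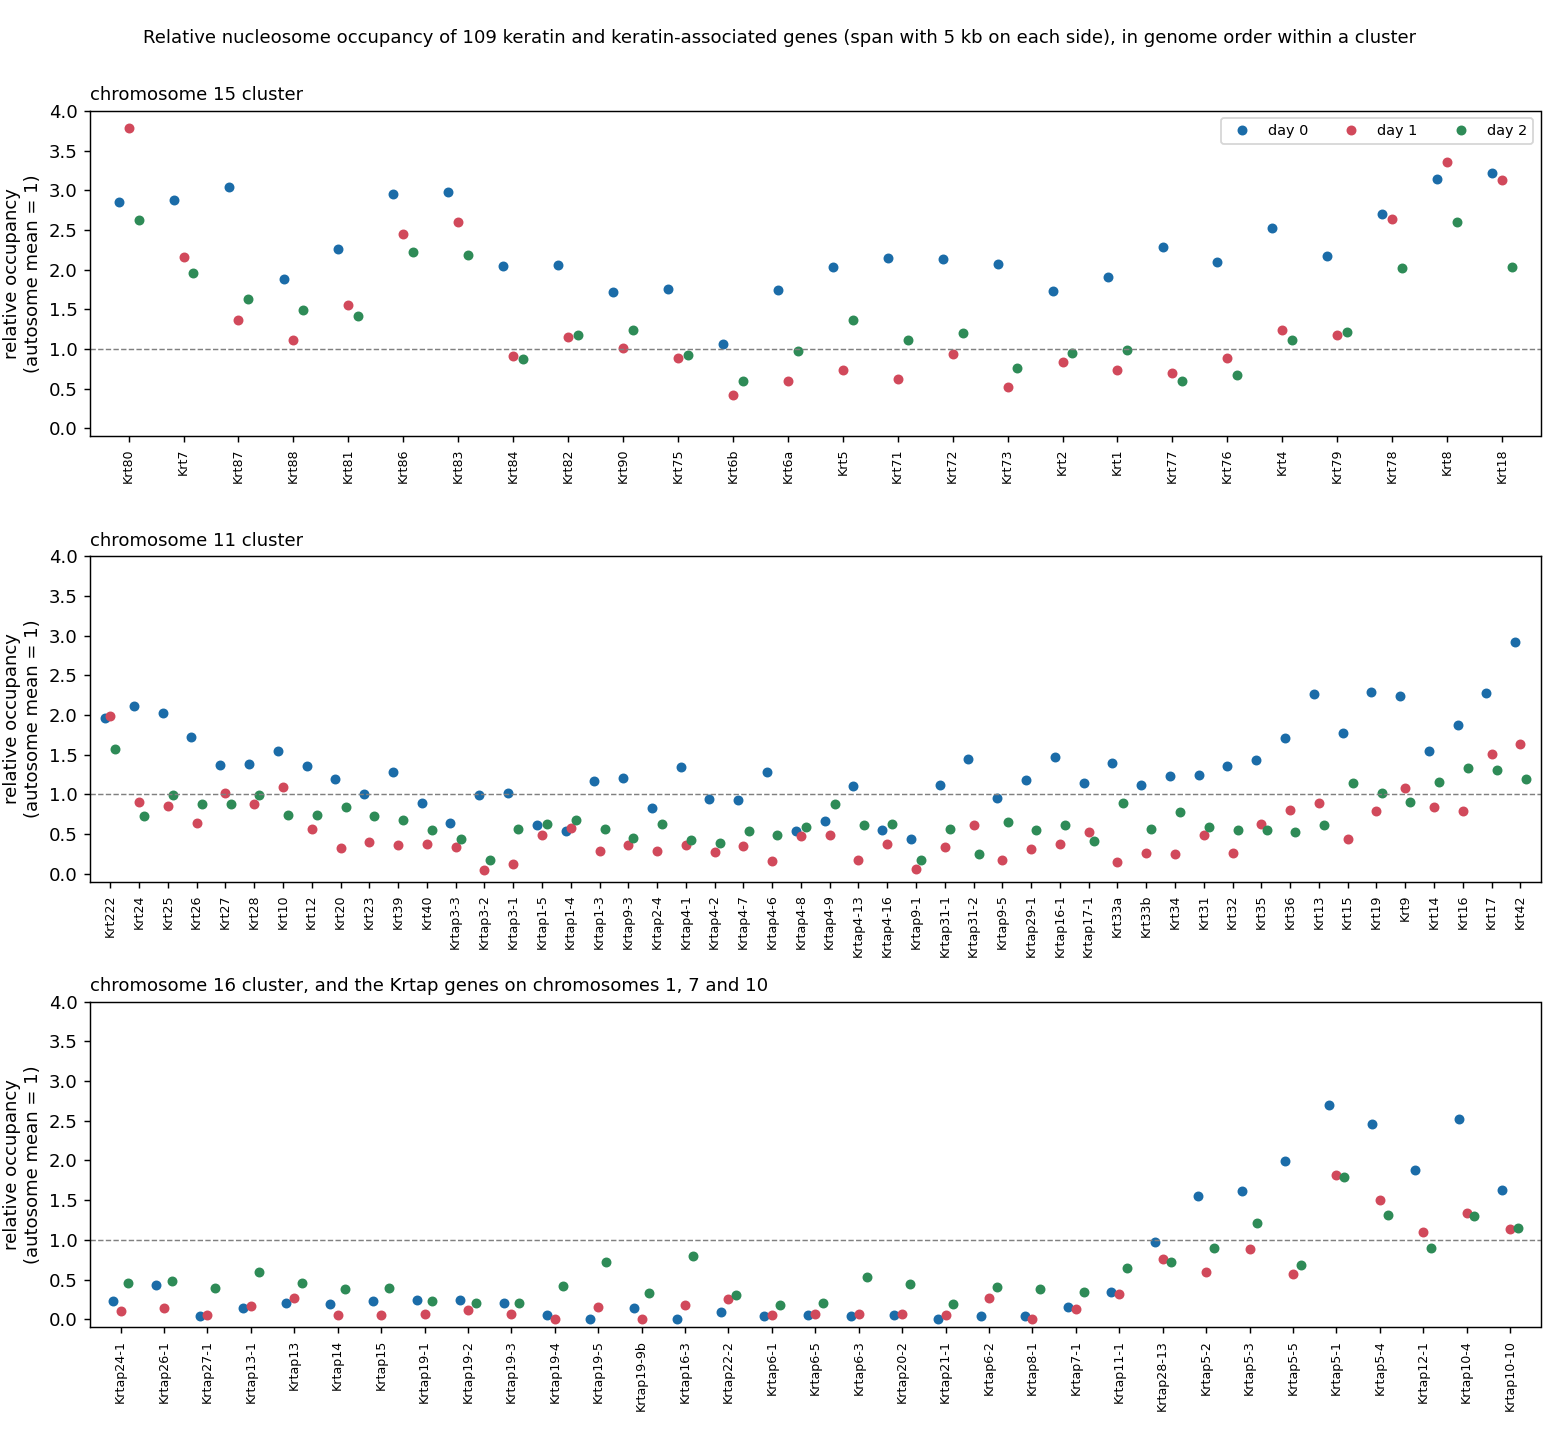
Relative occupancy of each of the 109 members (vertical axis, autosome mean at 1) in genome order within a cluster, with 1 point a day. The top panel holds the chromosome 15 cluster, the middle one the chromosome 11 cluster and the bottom one the Krtap genes of chromosomes 16, 1, 7 and 10. On chromosomes 15 and 11 the day 0 points lie highest for most genes, the first and last genes on chromosome 15 stay above 1.9 on all 3 days, and on chromosome 16 no gene reaches 1 on any day.

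Where these genes start, the DNA is poorer in G and C than at most genes. RefSeq promoters, the 250 bases before and 50 bases after the annotated start, were available for 87 of the 109 members and 16456 genes in all. Their median GC share was 44.7% in members (48.8% in keratins and 41.3% in Krtap genes), against 56.7% over all genes. The ratio of observed to expected CpG had a median of 0.213 in members, against 0.597 over all genes. The letters TATAAA, the core of the TATA box, stood on the gene's own strand in 59 of the 87 member promoters (67.8%), against 9.08% of all promoters of this length. Counting either strand gave 61 (70.1%), against 13.5%. In 39 members (44.8%) the letters began 20 to 40 bases before the start, against 2.75% of all promoters. The match is a description of the letters and not a measured binding site.

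The next 4 promoters, chosen after values were seen, show these letters in 1 gene of simple epithelia and 3 of hair. They are given as in RefSeq on GRCm38.p6, 5′ to 3′ on the gene's strand, with TATAAA in capitals. Krt8 lies on the minus strand (chr15:102004293-102004592), as do Krt33b (chr11:100029819-100030118), Krtap4-13 (chr11:99809847-99810146) and Krtap8-1 (chr16:89487903-89488202). The letters begin 1 base before the annotated start in Krt8, 47 bases before it in Krt33b, 27 in Krtap4-13 and 29 in Krtap8-1. In Krt8 and Krt33b they thus lie outside the range of 20 to 40 bases counted above.
Krt8 promoter: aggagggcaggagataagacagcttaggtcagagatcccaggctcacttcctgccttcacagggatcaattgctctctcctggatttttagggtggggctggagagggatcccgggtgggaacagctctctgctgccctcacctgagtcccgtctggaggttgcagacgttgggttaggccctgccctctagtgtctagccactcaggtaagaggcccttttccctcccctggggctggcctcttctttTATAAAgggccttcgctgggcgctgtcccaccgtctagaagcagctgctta
Krt33b promoter: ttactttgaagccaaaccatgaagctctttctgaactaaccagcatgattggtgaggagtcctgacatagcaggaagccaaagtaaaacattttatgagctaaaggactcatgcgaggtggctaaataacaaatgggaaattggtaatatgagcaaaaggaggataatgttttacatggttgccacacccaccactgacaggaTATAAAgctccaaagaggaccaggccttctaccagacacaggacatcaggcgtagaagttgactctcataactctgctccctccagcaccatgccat
Krtap4-13 promoter: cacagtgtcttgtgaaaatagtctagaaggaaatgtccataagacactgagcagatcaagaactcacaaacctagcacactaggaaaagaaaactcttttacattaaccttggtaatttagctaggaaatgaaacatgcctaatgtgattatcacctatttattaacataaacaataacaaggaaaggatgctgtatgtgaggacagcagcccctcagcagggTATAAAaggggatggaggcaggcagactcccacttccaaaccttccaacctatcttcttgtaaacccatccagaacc
Krtap8-1 promoter: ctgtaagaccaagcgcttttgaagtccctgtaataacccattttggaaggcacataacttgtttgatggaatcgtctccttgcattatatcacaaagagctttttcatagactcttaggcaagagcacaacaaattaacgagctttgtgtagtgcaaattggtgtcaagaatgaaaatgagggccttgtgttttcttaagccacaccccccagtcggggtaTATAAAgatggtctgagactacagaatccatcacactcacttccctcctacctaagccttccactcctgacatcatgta

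Listed nucleosomes covered these 300 bases unevenly over the days. In the Krt33b promoter 280, 0 and 0 bases lay under listed positions on days 0, 1 and 2. In the Krtap4-13 promoter they numbered 257, 0 and 70. Krtap8-1 ran the other way, with 0, 0 and 140 bases, and Krt8 had 180, 79 and 140. Over all 87 promoters, 47, 21 and 44 contained the centre of a listed position on days 0, 1 and 2, which is 54.0%, 24.1% and 50.6%, against 52.3%, 52.3% and 63.0% of all gene promoters. Promoter GC share differs between the members and the other genes, and its part in these differences was not tested.

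A pair of promoters, also chosen after values were seen, shows what was covered where. Krt7, a type II keratin of glandular and ductal epithelia, has a promoter of 66.3% GC on the plus strand (chr15:101412153-101412452), with 117, 280 and 258 bases under listed positions on days 0, 1 and 2. Krt13, a type I keratin of the lining of the mouth and oesophagus, has one of 50.3% GC on the minus strand (chr11:100121517-100121816), with 225, 0 and 190. Capitals mark the bases under listed positions on the day named.
Krt7 promoter, day 1: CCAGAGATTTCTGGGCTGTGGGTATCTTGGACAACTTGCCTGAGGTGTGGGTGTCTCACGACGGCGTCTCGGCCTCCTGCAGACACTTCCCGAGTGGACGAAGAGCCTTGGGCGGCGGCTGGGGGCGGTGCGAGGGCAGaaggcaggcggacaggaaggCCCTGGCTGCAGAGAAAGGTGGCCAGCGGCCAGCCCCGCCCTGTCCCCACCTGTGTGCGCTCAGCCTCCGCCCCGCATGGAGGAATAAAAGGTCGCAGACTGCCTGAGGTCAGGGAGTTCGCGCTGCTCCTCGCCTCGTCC
Krt13 promoter, day 0: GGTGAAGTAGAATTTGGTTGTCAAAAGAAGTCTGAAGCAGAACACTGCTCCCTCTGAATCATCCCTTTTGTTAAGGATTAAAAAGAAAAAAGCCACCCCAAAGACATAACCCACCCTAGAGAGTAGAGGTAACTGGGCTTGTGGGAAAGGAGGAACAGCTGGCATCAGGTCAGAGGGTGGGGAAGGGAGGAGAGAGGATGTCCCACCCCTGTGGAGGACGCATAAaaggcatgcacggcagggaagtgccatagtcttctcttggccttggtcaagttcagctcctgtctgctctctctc
Krt13 promoter, day 2: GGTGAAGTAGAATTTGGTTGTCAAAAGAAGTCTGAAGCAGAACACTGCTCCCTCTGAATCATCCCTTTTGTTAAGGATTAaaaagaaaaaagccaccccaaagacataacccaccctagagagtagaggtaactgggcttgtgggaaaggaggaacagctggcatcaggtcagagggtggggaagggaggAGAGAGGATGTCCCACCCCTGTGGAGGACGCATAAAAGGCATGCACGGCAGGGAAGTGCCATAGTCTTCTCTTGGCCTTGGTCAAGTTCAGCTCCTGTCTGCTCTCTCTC
At Krt13 the bases around the start were bare of listed positions on day 0 and covered on day 2.

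The chromosome 15 cluster had the highest levels of the 3 large clusters, and its ends differed from its middle. It held 1609, 944 and 1194 positions on days 0, 1 and 2 in 458.4 kb, relative densities of 2.29, 1.67 and 1.43. The ratio of day 1 to day 0 was 0.729 (0.672 to 0.791) and that of day 2 to day 0 was 0.625 (0.579 to 0.674). A split into 3 runs, made after the map of the cluster was seen, put most of the day 1 difference in the middle. The 16 genes from Krt84 to Krt79 had densities of 2.05, 0.983 and 1.06, a day 1 to day 0 ratio of 0.48 (0.42 to 0.547). From Krt80 to Krt83 the densities were 2.57, 2.42 and 1.95 (ratio 0.944, 0.821 to 1.08), and from Krt78 to Krt18 they were 2.61, 2.71 and 1.84 (ratio 1.04, 0.882 to 1.22).

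Simple epithelial keratins lie at both ends of this cluster. Krt8 (chr15:101996711-102004342), the type II partner of Krt18 and among the first keratins of the embryo, had 74, 69 and 71 positions on days 0, 1 and 2 and relative occupancies of 3.15, 3.36 and 2.60. Krt18 (chr15:102028216-102032026) had 61, 55 and 46 positions and 3.22, 3.13 and 2.03. Both were close to their day 0 level on day 1 and lower on day 2, with log2 differences of day 2 against day 1 of -0.36 for Krt8 and -0.60 for Krt18. The intervals of their scaled position ratios lay below 1 for that step, which was so for 4 members in all, the others being Krt78 and Krt80, and for 41% of all genes. Over all tested genes the median log2 difference of that step was -0.22, and over the other genes of the gene-richest 20% it was -0.54, so the values of Krt8 and Krt18 lie near the background. Krt7 (chr15:101412403-101427806), near the other end, had 108, 68 and 88 positions and occupancies of 2.88, 2.15 and 1.95.

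Krt80 (chr15:101348315-101370162), a type II keratin found in many epithelia, is the first gene of the cluster. It had 128, 135 and 138 positions and occupancies of 2.86, 3.78 and 2.63. Its scaled position ratio of day 1 to day 0 was 1.31 (1.02 to 1.68), the only one of the 109 whose interval lay above 1 for that step, as it did for 20.8% of all genes. Below 1 were 50 of the 109, against 11.5% of all genes. Krt80 was also the only member above the median of the gene-rich genes on any day, on day 2.

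The keratins of layered epithelia in the middle of the cluster were lower on day 1. Krt5 (chr15:101707069-101712905), the basal layer type II keratin, had 52, 17 and 41 positions and occupancies of 2.04, 0.741 and 1.37, a log2 difference of -1.35 for day 1 against day 0 and 0.81 for day 2 against day 1. Krt1 (chr15:101845426-101850786), its counterpart in the upper layers, had 51, 17 and 31 positions and occupancies of 1.91, 0.736 and 0.989. Day 0 was highest and day 1 lowest for both genes. Krt77 (chr15:101858731-101869706), a type II keratin related to Krt1, had 71, 22 and 27 positions and occupancies of 2.29, 0.695 and 0.597, a log2 difference of -1.78 for day 2 against day 0. Krt6a (chr15:101689928-101694305) and Krt6b (chr15:101676023-101680293), keratins induced in wounded epidermis, had the lowest means over the 3 days in the cluster, although other genes were lower than Krt6a on single days. Krt6a stood at 1.75, 0.594 and 0.971 with 41, 13 and 27 positions. Krt6b stood at 1.06, 0.417 and 0.597 with 26, 7 and 18.

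Root sheath and hair keratins of type II share the cluster, the root sheath genes between Krt5 and Krt1 and the hair genes between Krt7 and Krt75. The 7 inner root sheath keratins, of which Krt71, Krt72 and Krt73 are in this cluster and Krt25 to Krt28 on chromosome 11, had median occupancies of 2.03, 0.86 and 0.998, and 71.4% of them were lower by the fold of 2 on day 1 than on day 0. The 6 type II hair keratins had medians of 2.61, 1.46 and 1.52, of which 33.3% were lower. All 9 type I hair keratins, on chromosome 11, were lower on day 1 by that rule, with medians of 1.29, 0.368 and 0.563. Type I and type II hair keratins pair in the same filaments but stood at different levels on each day in their separate clusters.

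The chromosome 11 cluster had the largest difference between day 1 and day 0. Its windows held 1400, 543 and 923 positions in 613.5 kb, relative densities of 1.49, 0.717 and 0.825, and the ratio of day 1 to day 0 was 0.482 (0.436 to 0.533). Day 2 was 1.15 times day 1 (1.03 to 1.28) and 0.555 times day 0 (0.51 to 0.604). Of its 50 genes, 48 were lower on day 1 than on day 0 and 35 of them by a fold of 2, which is 35 of the 52 such members in all; 11 more were on chromosome 15, 4 on chromosome 16 and 2 on chromosome 7. Again the cluster was split after its map was seen. The Krtap run from Krtap3-3 to Krtap17-1 had densities of 1.08, 0.384 and 0.577, with a day 1 to day 0 ratio of 0.354 (0.281 to 0.444). The keratins before it, Krt222 to Krt40, had 1.56, 0.911 and 0.933, and those after it, Krt33a to Krt42, had 1.84, 0.858 and 0.979.

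Krt222 (chr11:99232761-99244147), the first gene of the cluster, had 66, 55 and 57 positions and occupancies of 1.96, 1.99 and 1.57. Its day 1 and day 0 levels were close, unlike those of most genes after it. Krt10 (chr11:99385254-99397449), the upper-layer partner of Krt1, had 56, 34 and 34 positions and occupancies of 1.55, 1.10 and 0.747. Krt20 (chr11:99428385-99438153), a keratin of the gut lining, had 40, 10 and 33 positions and occupancies of 1.19, 0.323 and 0.841, a log2 difference of -1.61 for day 1 against day 0 and 1.15 for day 2 against day 1. Krt23 (chr11:99477973-99493120), also a type I keratin of simple epithelia, had 44, 14 and 37 positions and occupancies of 1.00, 0.399 and 0.722. Like the middle of chromosome 15, both were lowest on day 1, so simple epithelial keratins did not share 1 pattern across the clusters: of the 6, Krt19, Krt20 and Krt23 on chromosome 11 were lower by a fold of 2 on day 1 and Krt7, Krt8 and Krt18 on chromosome 15 were not.

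At the far end of chromosome 11 lie the basal layer keratins. Krt14 (chr11:100203162-100207510), the partner of Krt5, had 35, 17 and 34 positions and occupancies of 1.54, 0.842 and 1.16. Krt15 (chr11:100131759-100135949), a keratin of basal cells and of the hair follicle bulge, had 41, 9 and 32 positions and 1.77, 0.442 and 1.14, log2 differences of -1.78 for day 1 against day 0 and 1.2 for day 2 against day 1. Krt19 (chr11:100140810-100145926), the simple epithelial keratin with almost no tail domain, had 52, 18 and 29 positions and 2.30, 0.797 and 1.02. Their common order was day 0 highest, day 2 next and day 1 lowest. Krt17 (chr11:100256215-100261029), a keratin of hair follicles and wounded skin, had 50, 31 and 38 positions and 2.27, 1.5 and 1.31. Krt42 (chr11:100262882-100269951), the last gene, had 69, 39 and 40 positions and 2.92, 1.63 and 1.19, the highest mean over the 3 days among the genes of this cluster. In these last genes day 2 was below day 1.

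Among the hair genes of chromosome 11, single members went down to a few positions on day 1. Krt33a (chr11:100011199-100016212), a hair cortex keratin, had 35, 3 and 27 positions on days 0, 1 and 2 and occupancies of 1.4, 0.151 and 0.889. Its scaled position ratio was 0.107 (0.021 to 0.338) for day 1 over day 0 and 6.09 (1.88 to 31.4) for day 2 over day 1. Krt36 (chr11:100102012-100109487), another hair keratin, had 50, 21 and 18 positions and occupancies of 1.72, 0.799 and 0.523. Krtap3-2 (chr11:99555823-99556853), of a high-sulfur family, had 19, 1 and 4 positions and 0.987, 0.0514 and 0.177, where the day 1 value rests on 1 position. On day 2 Krt33a and Krtap3-2 lay between their other 2 levels, while Krt36 was lower still than on day 1.

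Ultrahigh-sulfur genes lie in the same run. Krtap4-6 (chr11:99665043-99665960) had 22, 3 and 11 positions and occupancies of 1.28, 0.162 and 0.493. Krtap9-1 (chr11:99873389-99874000) had 8, 1 and 4 positions and 0.438, 0.0568 and 0.174. Both were lowest on day 1. Krtap31-2 (chr11:99936291-99937225), which was put in no composition class, had 26, 10 and 6 positions and 1.44, 0.609 and 0.253, and was the single member lower by a fold of 2 on day 2 than on day 1. Its log2 difference of day 2 against day 0, -2.13, was the largest decrease of any tested member. The 8 genes of this cluster that were higher by that fold on day 2 than on day 1 were Krt20, Krtap3-1, Krtap4-6, Krtap4-13, Krtap9-5, Krt33a, Krt34 and Krt15. A median window of 11.7 kb with 3 positions corresponds to a relative density of 0.168 on day 0, 0.209 on day 1 and 0.141 on day 2, so levels this low are near what the lists can show.

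**Figure D2:**
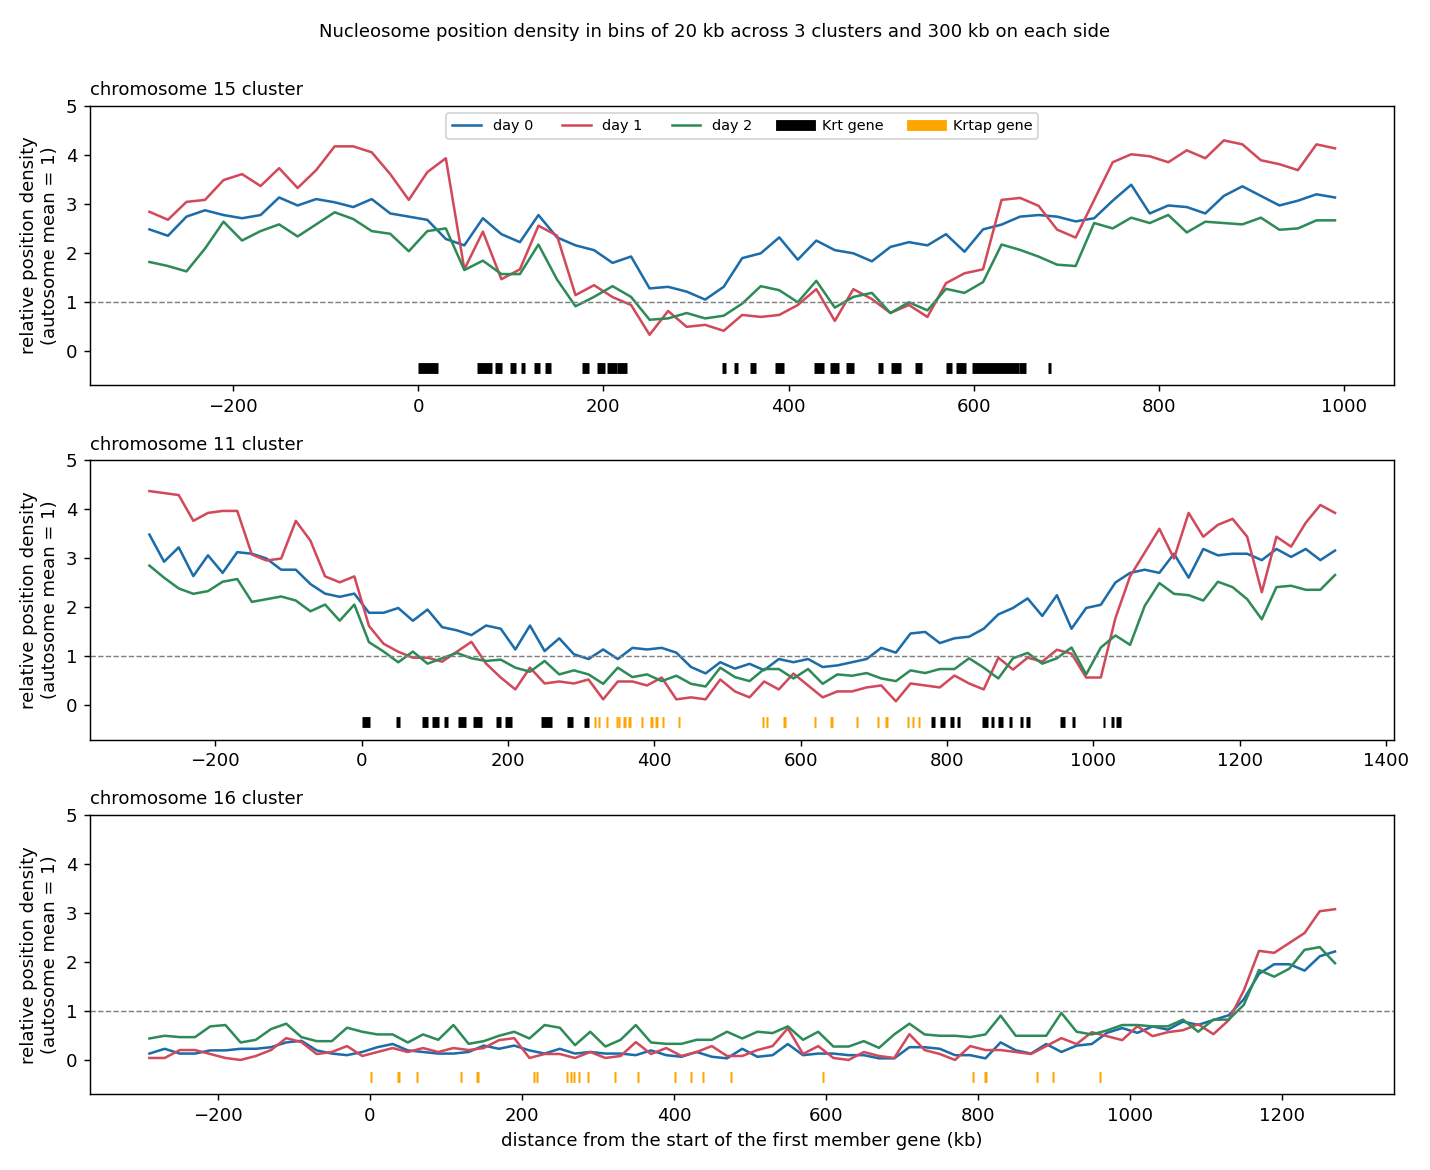
Relative position density in bins of 20 kb (vertical axis, autosome mean at 1) against distance from the start of the first member gene, across the clusters of chromosomes 15, 11 and 16 with 300 kb on each side, 1 line a day and gene bars under the lines. The day 1 line dips inside the chromosome 11 cluster and in the middle of the chromosome 15 cluster, and on chromosome 16 all 3 lines lie under 1 inside the cluster and the day 2 line is the highest in nearly every bin.

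The chromosome 16 cluster held almost no listed nucleosomes on days 0 and 1. Its 24 Krtap genes, which include all 15 high glycine-tyrosine members, had 56, 42 and 205 positions in 233.5 kb, relative densities of 0.156, 0.146 and 0.482. Day 1 was 0.932 times day 0 (0.61 to 1.42), an interval that includes 1, and day 2 was 3.31 times day 1 (2.36 to 4.72) and 3.08 times day 0 (2.28 to 4.22). All 24 genes were higher on day 2 than on day 1, and 22 of 24 were higher than on day 0. Over the 20206 tested genes, 12568 were lower on day 2 than on day 1 and 12169 lower than on day 0. On chromosome 16 lay all 10 members that were higher by a fold of 2 on day 2 than on day 0, and 14 of the 22 that were higher on day 2 than on day 1. The high glycine-tyrosine genes had median occupancies of 0.0484, 0.0608 and 0.334. The 20 high-sulfur genes, spread over 3 clusters, had 0.578, 0.276 and 0.579, and the 18 ultrahigh-sulfur genes, none of them on chromosome 16, had 1.12, 0.429 and 0.622.

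The single genes of chromosome 16 rest on few positions. Krtap16-3 (chr16:88962304-88962873) had 0, 3 and 18 positions on days 0, 1 and 2, so that against a floor of 3 positions its scaled number on day 2 was at least 5.05-fold higher than on day 0. Krtap19-5 (chr16:88895968-88896449), a high glycine-tyrosine gene, had 0, 3 and 16, which is at least 4.49-fold higher on day 2. Krtap6-3 (chr16:89084024-89084534), of the same class, had 1, 1 and 12 positions and occupancies of 0.0424, 0.0674 and 0.532. In each of the 3, day 2 held more positions than both earlier days together. Krtap19-4 and Krtap8-1 each had 1, 0 and 9 positions, at least 2.03-fold higher on day 2 than on day 1. The lowest genes over the 3 days were Krtap21-1 (chr16:89403027-89403774), with 0, 1 and 5 positions, and Krtap6-1 (chr16:89031699-89032292), with 1, 1 and 4. The highest were Krtap11-1 (chr16:89570176-89571183), with 8, 5 and 15 positions and occupancies of 0.347, 0.312 and 0.643, and Krtap26-1 (chr16:88646824-88647796), with 8, 2 and 11 and 0.435, 0.136 and 0.477. The 3 members counted as higher on day 1 than on day 0 by the fold of 2 were Krtap19-5, Krtap16-3 and Krtap6-2, each with 4 or fewer positions on both days.

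The Krtap genes outside the 3 large clusters were nearer to the keratins in level. On chromosome 7 the 5 Krtap5 genes, an ultrahigh-sulfur family, had 156, 73 and 121 positions, densities of 1.94, 1.13 and 1.27, and a day 1 to day 0 ratio of 0.582 (0.434 to 0.773). Krtap5-1 (chr7:142296377-142297134) stood highest, with 40, 24 and 37 positions and occupancies of 2.70, 1.82 and 1.8, and Krtap5-4 (chr7:142303502-142304503) had 38, 22 and 29 and 2.47, 1.5 and 1.32. Krtap5-5 (chr7:142228795-142229971) had 31, 8 and 15 and 2.00, 0.571 and 0.684, and Krtap5-2 (chr7:142174532-142176005) had 27, 10 and 20 and 1.55, 0.593 and 0.894. All 5 were lower on day 1 and on day 2 than on day 0. On chromosome 10 the 3 genes had 97, 55 and 67 positions, densities of 1.99, 1.4 and 1.16. Krtap10-4 (chr10:77826169-77827070) had occupancies of 2.52, 1.34 and 1.30, Krtap10-10 (chr10:77835947-77837251) 1.63, 1.13 and 1.14, and Krtap12-1 (chr10:77720586-77721256) 1.89, 1.09 and 0.894. The lone Krtap28-13 on chromosome 1 (chr1:83060930-83061921) had 17, 11 and 16 positions and occupancies of 0.968, 0.761 and 0.724.

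Set against the DNA within 1 Mb on both sides, from the same library, the clusters other than that of chromosome 1 stood below their surroundings, although on chromosome 10 the day 0 share, 0.885 (0.717 to 1.08), had an interval that includes 1. Krtap28-13 on chromosome 1 stood above its flanks, at 1.53, 1.79 and 1.22. The chromosome 15 cluster had 0.905 of the flank density on day 0, 0.617 on day 1 and 0.74 on day 2. On chromosome 11 the shares were 0.502 (0.474 to 0.531), 0.201 (0.184 to 0.22) and 0.356 (0.332 to 0.381), and on chromosome 16 they were 0.134 (0.101 to 0.174), 0.101 (0.0729 to 0.137) and 0.382 (0.331 to 0.44). A cluster and its flank come from 1 list, with 1 depth and 1 listing threshold, but the shares differed with the minimum summit value. With summit values of 10 or more, they were lower on each day in every cluster except that of chromosome 1. On chromosome 11 they became 0.136, 0.0137 and 0.0613 on days 0, 1 and 2, and on chromosome 15, 0.512, 0.246 and 0.361. On chromosome 1 they rose to 4.67, 3.50 and 2.00, resting on 2, 1 and 1 positions. What part the listing threshold has in the shares was not tested. Relative to the autosomes, the flanks of chromosome 11 were denser on day 1, with 2.96 on day 0, 3.56 on day 1 and 2.32 on day 2. On this scale cluster and surroundings went opposite ways between days 0 and 1. The listed positions of these flanks, before scaling, numbered 9090, 8793 and 8454, so in number both were lower on day 1, the flanks only slightly. The 2 flanks of chromosome 16 differ from each other: before the cluster the density was 0.543, 0.648 and 0.795, and after it, 1.79, 2.23 and 1.73. Against the 1 Mb of the sparser side alone the chromosome 16 cluster was also lower on every day. The bins of 20 kb in the 300 kb just before it had 0.0977 to 0.391 on day 0, 0 to 0.445 on day 1 and 0.356 to 0.74 on day 2. Levels like those of the cluster thus continued beyond its first gene.

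**Figure D3:**
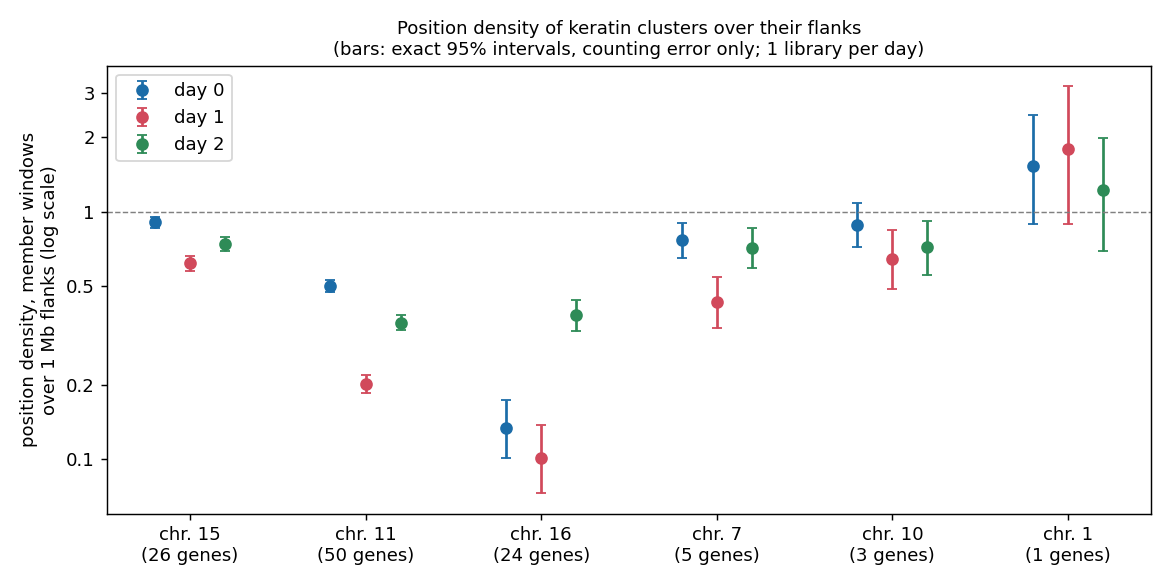
Position density in the member windows of each cluster divided by that of the DNA within 1 Mb on both sides (vertical log axis), 1 point a day with the exact 95% interval of counting error. All clusters but that of chromosome 1, which is 1 gene with 17, 11 and 16 positions, lie below 1 on each day, although the interval of chromosome 10 on day 0 includes 1, and in those of chromosomes 15, 11, 16, 7 and 10 day 1 is the lowest point.

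Of the 12 genes nearest to the ends of the chromosome 11 and 15 clusters, 3 at each end, 11 were higher on day 1 than on day 0, and Gast, a hormone gene, was lower, with occupancies of 3.95, 2.92 and 2.53 on days 0, 1 and 2. Smarce1, a chromatin remodelling subunit gene just before Krt222, had occupancies of 2.07, 2.42 and 1.93, and Eif1, a translation initiation factor gene after Krt42, had 2.69, 3.67 and 2.96. Smim41, before Krt80, had 3.50, 5.98 and 3.12, and Eif4b, another translation factor gene, which follows Krt18, had 3.31, 3.85 and 3.04. These 4, the nearest at each end, were highest on day 1, where most members were lowest. On chromosome 16, Cldn8, a tight junction gene before the cluster, had 0.0412, 0.189 and 0.374, as low as the cluster itself, and Tiam1, after it, had 2.18, 3.14 and 2.32. Other genes inside the clusters of chromosomes 16, 11, 7 and 10 had levels near those of the members. The 34 inside that of chromosome 16 had medians of 0.0996, 0.124 and 0.305, and the 16 inside or at the edge of that of chromosome 11, with Smarce1 among them, had 0.781, 0.287 and 0.579, a median log2 difference of -1.16 for day 1 against day 0. On chromosome 7 the 5 inside had 2.40, 1.37 and 1.18, and on chromosome 10 the 14 inside had 2.00, 1.17 and 1.10. The 1 inside the chromosome 15 cluster, Gm5414, had 0.913, 0.743 and 0.545, below the member medians there of 2.14, 1.07 and 1.21. The lower day 1 level on chromosomes 11, 7 and 10 was thus also found in windows of genes without a Krt or Krtap symbol. These windows too include 5 kb on each side and can overlap those of members, as that of Smarce1 does with that of Krt222. Overlapping windows share positions, so these levels are not separate from those of the members. How much was shared was not counted. Most of the other genes inside these clusters are gene models without a family name, and whether they are Krtap genes was not tested. Gm4553, a gene model beside the chromosome 7 cluster, had 2.47, 1.13 and 0.557.

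Most members lie in gene-rich DNA by count, partly because they are themselves close together. The median number of genes in the 1 Mb around a member was 52, against 15 for all genes, and it was 22 (8 to 39) when members were not counted. The latter count still includes the other genes inside the clusters. On chromosome 16 there were 34 of these, against 8 in the flanks within 1 Mb of the cluster. By the count with members, 99 of the 109 fall in the gene-richest 20%, with 32 or more genes in 1 Mb. The other 4095 genes of that group had median occupancies of 3.24, 3.98 and 2.61. All 109 members lay below that median on days 0 and 1, and 108 did on day 2. The lower quartile of that group was 1.25, 1.13 and 1.12, and 51, 90 and 83 members lay below it.

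Other tissue-restricted gene families were described in the same way. The 1103 olfactory receptor genes, of which 693 are in the gene-richest 20%, had medians of 0.157, 0.144 and 0.418, in the range of the chromosome 16 Krtap genes (0.114, 0.0671 and 0.396). The 44 genes of the epidermal differentiation complex, which encode proteins of the cornified skin surface, had 0.325, 0.21 and 0.427. On each day the epidermal genes lay above the chromosome 16 members, and both families lay below the keratins. The 18 genes of other intermediate filaments, such as vimentin and the lamins, had 2.93, 3.18 and 2.28, above the autosome mean on each day. By the fold of 2, 49.5% of the tested members were lower on day 1 than on day 0, against 14.9% of olfactory receptor genes, 27.3% of epidermal differentiation genes, none of the 18 other intermediate filament genes and 4.58% of the other genes of the gene-richest 20%. For day 2 against day 0 the share that was higher was 9.52% of members, against 42% of olfactory receptor genes and 18.2% of epidermal differentiation genes. None of the 53 keratins and 19.2% of the tested Krtap genes were in that share.

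**Figure D4:**
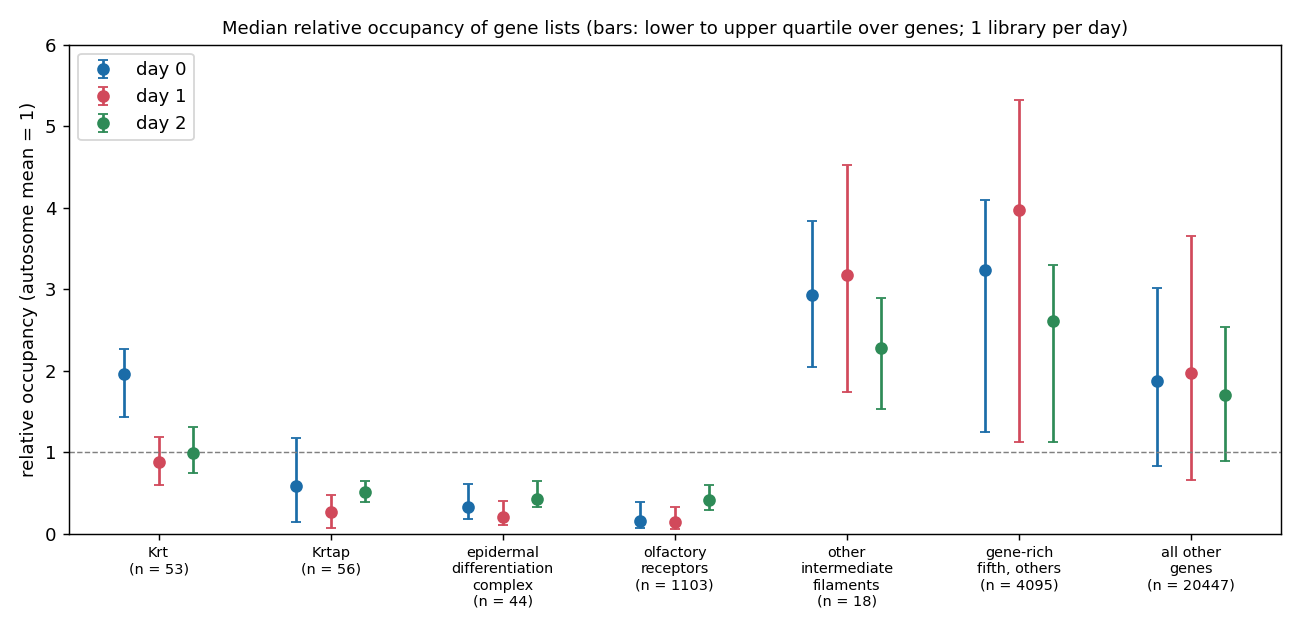
Median relative occupancy (vertical axis, autosome mean at 1) of the keratins, the Krtap genes and 5 other lists on each day, with bars from the lower to the upper quartile over genes. The keratins lie at 1.96, 0.875 and 0.989 and the Krtap genes at 0.582, 0.267 and 0.513, between the olfactory receptor genes and the genes of the gene-richest 20%, whose medians are 3.24, 3.98 and 2.61.

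High summit values made up a smaller share of the positions in member windows than over the autosomes, and more so on day 1. The share with summit values of 10 or more was 13.5%, 6.95% and 6.33% on days 0, 1 and 2, against 15%, 13.3% and 9.06% over the autosomes. In the chromosome 11 cluster it was 9.86%, 2.03% and 3.79%, and in that of chromosome 16 it was 0 of 56, 0 of 42 and 1.46% of 205. For the 2 counts of 0, a floor of 3 positions would be shares of 5.36% and 7.14%. The median fuzziness score, the authors' measure of how widely the reads of a position spread, was 51.9, 54.0 and 50.5 in member windows, against 51.1, 54.5 and 51.1 over the autosomes. Distances between neighbouring centres had medians of 240, 259 and 275 bp in member windows, against 252, 235 and 260 bp over the autosomes. On chromosome 16 they were 1020, 990 and 491 bp, with the longest gaps on days 0 and 1.

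Few positions were found at the same place on another day. Among day 0 positions in member windows, 9.27% (8.3 to 10.3) had a centre of day 1 within 20 bp, and 7.29% did after a shift of 1000 bp, against 13.7% and 10.5% over the autosomes. Of the 1668 positions of day 1, 15.5% (13.8 to 17.3) had a centre of day 2 within 20 bp and 12.2% after the shift, against 18.5% and 13.8% over the autosomes. The share found again was thus a few percentage points above the shifted share in member windows, as over the autosomes.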

How the data were processed

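Nucleosome positions of mouse erythroblasts on culture days 0, 1 and 2, with 1 library a day, were used as the authors deposited them, 1 list a library. Bowtie2, bedtools and the build mm10 are named in the submitters' processing notes; the sources used here give no versions, position caller, settings or read totals. Summit values are a coverage signal as the authors deposited it, named only smt value in the file headers; the names of the lists carry the words Qnor and smooth, which the sources used here do not explain. The fuzziness score and the p-value of each position were also deposited by the authors, and the p-values were not used.

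A position was assigned by its centre. Genes came from the RefSeq table of GRCm38.p6; 105 genes starting below 3 Mb, none of them a member, were left out. Clusters, flanks of 1 Mb and list membership followed the rules given with the results, and the runs within the clusters of chromosomes 11 and 15 were set after the data were examined. Members, lists and settings were chosen with earlier results of these data known. Named genes were 14 keratins of known role, the 2 highest and 2 lowest members of each cluster by mean relative occupancy, and the largest differences between days among members with at least 10 positions; edge genes, the genes of shown promoters and other genes in counts were added after their values were seen. Krtap genes were classed by family number.

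With 1 library a day no test was made. Shares have exact Clopper-Pearson intervals and ratios of position numbers exact conditional binomial ones, at 95%, the ratios being divided by that of the autosome totals, and they cover counting error only. A position under a promoter was read as the 140 bases from its listed start plus 1 to its listed end. Reads from near-identical genes can be assigned to the wrong copy, which leaves Krtap values uncertain. No pair of the 87 member promoters was 95% identical, the highest being 91%. That comparison covers 300 bases a gene, and how uniquely reads map over the member windows was not tested. The calculations were tested on simulated data. Alternatives were other windows, summit minimum, weighting, scaling, pseudocount, minimum of positions, flank and cluster gap. Python 3.11.15 with numpy 2.4.6, pandas 2.3.3, scipy 1.17.1 and matplotlib 3.10.9 was used.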

Additional observations from a re-analysis of the deposited data

How the results depend on the processing

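Over all member windows the ratio of day 1 to day 0, 0.622, was 0.363 with summit values of 10 or more, 0.581 when positions were weighted by summit value, 0.672 with 2 kb on each side, 0.768 with the gene span alone, 0.723 without the members of chromosome 11 and 0.522 without those of chromosome 15. The ratio of day 2 to day 0, 0.638, was 0.497 with summit values of 10 or more, 0.689 when scaled to the windows of all genes, 0.697 without chromosome 11 and 0.596 without chromosome 16. Both stayed below 1 in every alternative run. The ratio of day 2 to day 1, 1.03, turned to 0.941 with 2 kb, 0.836 with the span alone, 0.965 without chromosome 11 and 0.967 without chromosome 16, and was 1.37 with summit values of 10 or more, 1.16 when scaled to gene windows and 1.25 without chromosome 15, so its direction was not settled.

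The median relative occupancy of members was 1.92, 1.18 and 1.10 on days 0, 1 and 2 with the span alone, 0.647, 0 and 0 with summit values of 10 or more, and 0.655 on day 1 and 0.86 on day 2 with 2 kb. Members past a fold of 2 were counted again, with the share of all genes measured at that setting as background. With 2 kb, 89 members were measured. Day 2 had 13 higher (background 7.7%) and 0 lower (1.18%) than day 1, and 3 higher than day 0 (5.15%). With the span alone, 67 members were measured. Day 1 had 1 higher (background 3.25%) and 21 lower (4.68%) than day 0. Day 2 had 4 higher (6.63%) and 4 lower (3.57%) than day 1, and 0 higher than day 0 (4.58%). With summit values of 10 or more, 21 members were measured. Day 1 had 0 higher (background 10.9%) and 14 lower (15.4%) than day 0. Day 2 had 5 higher (12.3%) and 3 lower (7.83%) than day 1, and 0 higher (12.3%) and 12 lower (12.2%) than day 0. A pseudocount of 0.5 gave 0 higher and 23 lower, 1 higher and 0 lower, and 2 higher and 10 lower for these 3 comparisons. The backgrounds were 0.292% and 0.841%, 0.431% and 0.0693%, and 0.584% and 0.302%. With at least 3 positions on each day, 0, 8 and 1 of 85 members were higher in the 3 comparisons, against backgrounds of 1.22%, 5.99% and 4.1%. Scaling to the median of all gene windows gave 0 higher on day 1 than on day 0 (background 0.807%) and 0 lower on day 2 than on day 1 (background 0%). The causes of these shifts were not tested, apart from the smaller number of members that some settings leave.

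No paired analysis was possible because each day has 1 library. The alternative that leaves out members with near-identical proteins was not run, since protein sequences were not used here. Depth is unknown and positions were called in each library, so a window without positions shows only that none was listed. The 1 library a day leaves differences between cultures unmeasured.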
